A study of Homo sapiens with 24 samples.

Results

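The 10 genes of the TNF receptor superfamily listed next were followed in L1236, a long-used line of Hodgkin lymphoma cells that arose from a B cell: CD40, TNFRSF8, TNFRSF9, TNFRSF17, CD27, TNFRSF13B, TNFRSF13C, LTBR, TNFRSF1A and TNFRSF1B. They were chosen by name, as the transcript clusters to which the platform annotation gives that gene symbol and no other. Each of the 10 genes had 1 such cluster among 33297 on the array, 19460 of which carried a single symbol. A transcript cluster is the set of array probes that stands for 1 transcript locus.

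The 2 experiments used 24 arrays of the Affymetrix type Human Gene 1.0 ST. In the p50/RelA KD (knockdown) of experiment 1, cells received siRNA against NFKB1 at 1 µM for 3 days and against RELA at 500 nM for 2 days, and control 1 received non-targeting siRNA. In the p52/RelB KD of experiment 2, cells received siRNA against RELB at 1 µM for 3 days and against NFKB2 at 500 nM for 2 days, and control 2 again received non-targeting siRNA. Every arm held 6 arrays, with 3 replicates of each of 2 siRNA sequences. All arms shared passive delivery of chemically synthesized siRNA in medium with little serum, and all were returned to normal serum for 1 day before collection, which per the methods lay before apoptosis set in. L1236 is a single line, and the study's methods call the 3 replicates biological. The 6 arrays of an arm are thus not 6 independent cultures, since both siRNA sequences of a replicate belong to it, and the replicate was a block in the fits unless stated. In RNA of whole cultures, fewer cells that express a gene and less of its RNA per cell cannot be told apart.

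Receptors of this family sit on the cell surface and are clustered by trimeric ligands of the TNF family. Most of them bind TRAF adaptor proteins through their tails and switch on the canonical NF-κB pathway, in which the IKK complex removes IκB inhibitors and frees p50/RelA dimers. A subset, CD40, LTBR and TNFRSF13C among them, also stabilises the kinase NIK and so drives the non-canonical pathway, in which p100 is processed to p52 that pairs with RelB. Hodgkin and Reed-Sternberg cells are known for surface CD30, the product of TNFRSF8, and for CD40, and both NF-κB pathways are constantly active in them.

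The siRNAs are shown because every value below is also given by siRNA sequence. The study's list gives 2 sequences for each target, 5′ to 3′, but neither numbers them nor states the strand, so the letters a and b follow that list and are not sequence 1 and sequence 2 of the arrays. All are 19 bases long, and between 4 and 9 of those bases are G or C.
NFKB1 siRNA a: ccaaaguauaaagauauua
NFKB1 siRNA b: ggcucauguuuacagcuuu
RELA siRNA a: cuuccaaguuccuauagaa
RELA siRNA b: ggauugaggagaaacguaa
RELB siRNA a: guaggauucggaaaagauu
RELB siRNA b: uggagaucaucgacgagua
NFKB2 siRNA a: ucauugagcagauagucua
NFKB2 siRNA b: cugucaagaucuguaacua

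These siRNAs lowered their own targets. In p50/RelA KD arrays NFKB1 lay between 8.91 and 9.68 and RELA between 8.13 and 8.81 on the log2 scale, against 11.07 to 11.31 and 9.79 to 9.90 in control 1. NFKB2 lay between 8.72 and 9.07 in p52/RelB KD arrays, against 10.16 to 10.41 in control 2, and RELB between 8.59 and 8.90, against 8.95 to 9.15. In these 4 cases the arms did not overlap. Fitted differences in the p52/RelB KD were -1.34 for NFKB2 and -0.29 for RELB, and -1.36 and -0.31 without the array described below. NFKB2 also fell in the p50/RelA KD (-0.19 ± 0.04 SE, limma adjusted p = 0.0422), NFKB1 rose in the p52/RelB KD (0.15 ± 0.04 SE, adjusted p = 0.0359, and 0.17 without the array described next), and REL, which encodes a further NF-κB subunit, fell in the p52/RelB KD (-0.57 ± 0.07 SE, adjusted p = 0.000308, and -0.50 without that array). With no replicate block the calls of NFKB2 in the p50/RelA KD and NFKB1 in the p52/RelB KD were lost (adjusted p = 0.105 and 0.163). Array medians spanned 6.94 to 6.99 in experiment 1, but 7.39 to 7.51 in experiment 2, so each experiment was treated as normalized by itself and levels are compared only within one. The array of p52/RelB KD with sequence 2 in replicate 3 stood apart, with a mean correlation of 0.986 with the rest of its arm where the other arrays had 0.993 to 0.997, and the KD effects of experiment 2 are given with and without it for the receptors and for the genes called there. The 6 Hodgkin cell markers averaged 8.62 to 12.4 over the arms of experiment 1, and 9.03 to 12.5 over those of experiment 2. Of 6 B cell markers with a cluster of their own, MS4A1 (CD20), often lost in Hodgkin cells, was below the low-value limit in both. The other 5 passed the filter in both. Their control means ran from 6.95 (CD79B) to 10.86 (PAX5) in experiment 1 and from 7.28 (CD79B) to 10.95 (PAX5) in experiment 2.

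Of the 10 receptors, 2 fell in the p50/RelA KD and none rose, while 2 fell and 1 rose in the p52/RelB KD. A gene was called changed at a limma adjusted p below 0.05 over all clusters tested with a difference of at least 10%. All 10 passed the filter on low values in both experiments. Over all 15989 clusters tested in experiment 1, 0.876% were called lower and 0.263% higher. Over the 17562 tested in experiment 2, 6.0% were called lower and 4.04% higher. CD40 was the member called in both, TNFRSF9 was called in the p50/RelA KD, and TNFRSF17 and CD27 were called in the p52/RelB KD. The median log2 difference of the 10 receptors was -0.012 in the p50/RelA KD, where all clusters tested had 0.00050, and 0.016 in the p52/RelB KD, where all clusters tested had 0.017.

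**Figure D1:**
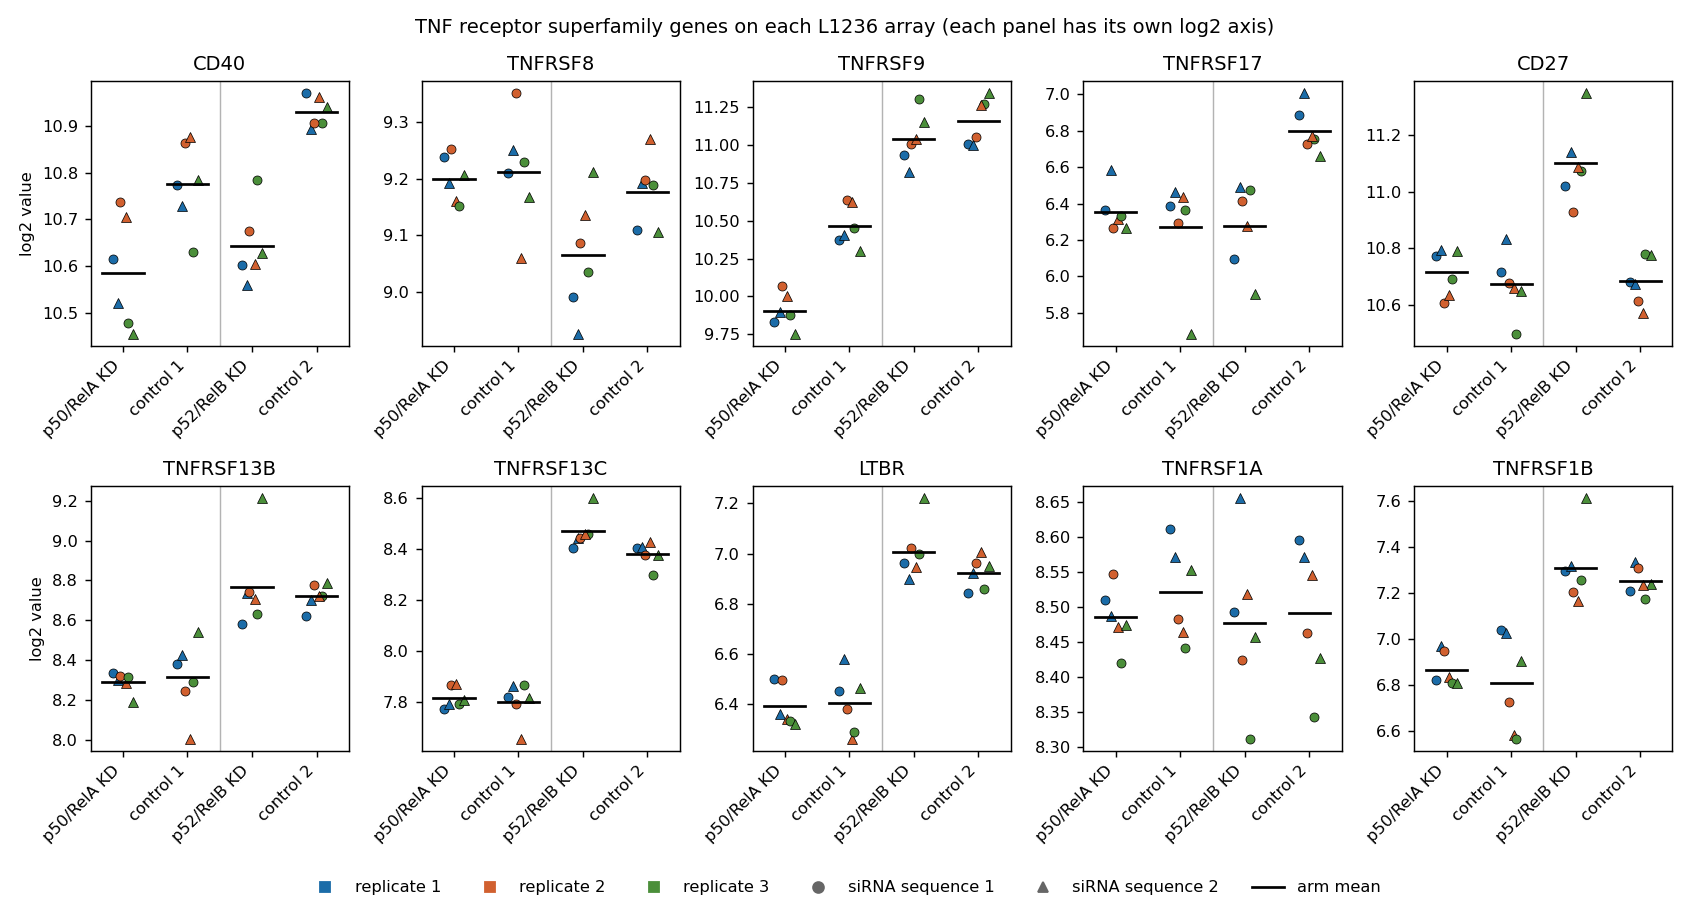
Log2 value of each of the 10 receptor genes on each of the 24 arrays, by arm, with a line at the arm mean, colour for the replicate and shape for the siRNA sequence. The p50/RelA KD arrays of TNFRSF9 and the p52/RelB KD arrays of CD40 and TNFRSF17 lie below all of their controls, and the p52/RelB KD arrays of CD27 lie above all of theirs. The panels have separate axes, and levels are not comparable between genes or between experiments.

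CD40 (cluster 8063156) encodes the receptor for CD40 ligand on helper T cells and is needed for germinal centre responses. On p50/RelA KD arrays it had a lowest, median and highest value of 10.45, 10.57 and 10.74, against 10.63, 10.78 and 10.88 on control 1 arrays. The arms overlapped, with 4 of the 6 p50/RelA KD arrays below every control array and both arrays of replicate 2 above the lowest control array. Each p50/RelA KD array was below the control mean of its own replicate, with log2 differences between -0.25 and -0.13. The fitted difference was -0.19 ± 0.04 (SE, n = 6 each), or 87.6% of the control level, with a limma adjusted p of 0.0246. That call was lost when any of 7 single arrays was left out (control 1 sequence 1 of replicates 1 and 2, control 1 sequence 2 of replicate 1, p50/RelA KD sequence 2 of replicates 1, 2 and 3, and p50/RelA KD sequence 1 of replicate 3), with adjusted p between 0.0509 and 0.0773 and differences between -0.20 and -0.18. It was also lost without any 1 of the replicates (adjusted p = 0.268, 0.166 and 0.180), with no replicate block (0.236), with both sequences of a replicate averaged first (0.196), with either sequence alone and within each scan batch, so in 17 of 28 alternatives, while the difference kept its sign.

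The values of CD40 separated fully in the p52/RelB KD. The lowest, median and highest were 10.56, 10.62 and 10.79 on p52/RelB KD arrays, against 10.89, 10.92 and 10.97 on control 2 arrays. No arm overlapped the other, which was so in this direction for 3.26% of clusters in experiment 2 and 0.776% in experiment 1. CD40 fell by 0.29 ± 0.04 on the log2 scale (SE), to 81.9% of the control level (adjusted p = 0.000774), and the difference was -0.28 ± 0.04 (SE) without the array that stood apart (adjusted p = 0.000285). It was -0.24 with sequence 1 and -0.33 with sequence 2. The effect of the p52/RelB KD minus that of the p50/RelA KD was -0.10 for CD40, with a 95% confidence interval of -0.20 to 0.01 and an adjusted p of 0.378, so a difference between the KDs was not detected.

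TNFRSF9 (cluster 7912145) encodes 4-1BB (CD137), a costimulatory receptor that activated T cells carry and that Hodgkin cells can also express. It had the lowest p of the 10 receptors and ranked 4 of 15989 clusters by p in experiment 1. On p50/RelA KD arrays its lowest, median and highest values were 9.75, 9.89 and 10.07, against 10.30, 10.43 and 10.64 on control 1 arrays. No p50/RelA KD array reached a control array. TNFRSF9 fell to 67.7% of the control level, a difference of -0.56 ± 0.04 (SE, adjusted p = 7.93e-06). The values of the 3 replicates were -0.53, -0.60 and -0.56, and those of sequence 1 and sequence 2 were -0.54 and -0.58.

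In the p52/RelB KD, TNFRSF9 had a lowest, median and highest value of 10.82, 11.02 and 11.30, against 11.00, 11.16 and 11.35 in control 2. The arms overlapped, although each of the 6 p52/RelB KD arrays was below the control mean of its replicate. The difference of -0.11 ± 0.05 (SE) was not called (adjusted p = 0.150), nor was it without the array that stood apart (-0.10 ± 0.04 SE, adjusted p = 0.130). The test of the difference itself gave 0.45 ± 0.06 (SE) for the p52/RelB effect minus the p50/RelA effect (adjusted p = 6.43e-05, and 0.46 without the array that stood apart), a comparison in which 4.61% of 15962 clusters were called in either direction.

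Upstream sequence of TNFRSF9 and of CD27 is shown because they were called in opposite directions in different KDs, beside shorter stretches of NFKBIA and TNFAIP3, which encode the NF-κB inhibitors IκBα and A20 and fell in the p50/RelA KD. The sequences come from RefSeq (GRCh38.p14), which held 7 of the 10 receptors as promoters of 300 bases, and are the reference genome rather than L1236. Each is written 5′ to 3′ on the strand of the gene, and capitals mark matches to GGG and TTCC with any 3 bases between them, a spelling of the κB motif that NF-κB dimers bind, searched on both strands. The stretch of TNFRSF9 covers chr1:7940840-7941089 on the minus strand and that of CD27 covers chr12:6443642-6443891 on the plus strand, the 250 bases before each start. The 60-base stretches of NFKBIA and TNFAIP3 cover chr14:35404800-35404859 on the minus strand and chr6:137867169-137867228 on the plus strand.
TNFRSF9 upstream: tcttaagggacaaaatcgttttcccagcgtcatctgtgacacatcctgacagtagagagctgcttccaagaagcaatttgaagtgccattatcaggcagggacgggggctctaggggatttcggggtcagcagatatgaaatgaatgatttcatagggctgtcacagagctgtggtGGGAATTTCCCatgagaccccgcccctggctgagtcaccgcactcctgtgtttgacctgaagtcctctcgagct
CD27 upstream: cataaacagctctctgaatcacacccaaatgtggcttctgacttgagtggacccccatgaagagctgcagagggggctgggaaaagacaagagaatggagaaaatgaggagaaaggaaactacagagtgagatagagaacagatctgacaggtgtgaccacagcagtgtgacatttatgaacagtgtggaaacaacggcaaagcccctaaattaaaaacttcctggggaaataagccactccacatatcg
NFKBIA stretch: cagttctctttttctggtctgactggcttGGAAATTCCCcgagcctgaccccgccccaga
TNFAIP3 stretch: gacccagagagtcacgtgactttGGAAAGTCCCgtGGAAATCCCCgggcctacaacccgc

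TNFRSF9 held 2 matches that overlap on opposite strands, 74 to 65 and 73 to 64 bases before the start. It was the 1 of the 7 receptors with a promoter that held this motif, and also the 1 of 7 that held the degenerate κB decamer consensus, whose matches there lie on the same bases. Of all 34943 promoters of this length, 6.52% held it and 5.9% held the consensus. NFKBIA had 1 match, and the stretch of TNFAIP3 shows its 2 matches, all on the opposite strand. LTB, TRAF3, NFKBIB and CYLD also held this motif in a promoter but were called in neither KD. TNF and BIRC2, called lower in both KDs, held none. Receptors and pathway genes called lower in the p50/RelA KD, siRNA targets included, held it in 6 of 10 with a promoter. In the p52/RelB KD it was 5 of 11. A gene counted if any of its promoters held the motif, while 6.52% is a share of single promoters, so these are not like for like. Called or not, 5 of 5 inhibitor genes with a promoter held it, 3 of 4 siRNA targets and REL, and 3 of 7 ligand genes. So did 2 of 11 adaptor and kinase genes, 0 of 10 other receptors and 0 of 2 sheddase genes. A link of the motif to the calls was not tested. A match is a match of letters and no evidence of binding, and no promoter was found in the table for CD40, TNFRSF17 and TNFRSF13C.

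TNFRSF17 (cluster 7993267) encodes BCMA, a receptor for BAFF and APRIL on plasma cells. It lay near the low-value limit of 6, with 1 array below that limit in each experiment. On p52/RelB KD arrays its lowest, median and highest values were 5.90, 6.34 and 6.49, against 6.66, 6.76 and 7.01 on control 2 arrays. The arms did not overlap, but the p52/RelB KD arrays spread widely, with an SD of 0.24 against 0.13 in control 2. The difference was -0.53 ± 0.10 (SE), or 69.4% of the control level (adjusted p = 0.00419). Without the array that stood apart, which held the lowest value, it was -0.46 ± 0.08 (SE, adjusted p = 0.00136). Minus the control mean of their replicate, single p52/RelB KD arrays lay between -0.86 and -0.23. The call was lost when replicate 1 was left out (-0.46, adjusted p = 0.0817) and when replicate 2 was (-0.59, adjusted p = 0.0536).

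TNFRSF17 was not called in the p50/RelA KD, at 0.08 ± 0.10 (SE, adjusted p = 0.874). Its lowest, median and highest values were 6.27, 6.32 and 6.58, against 5.68, 6.38 and 6.46 in control 1. The effects differed by -0.61 ± 0.15 (p52/RelB minus p50/RelA, SE, adjusted p = 0.0179). This call was lost without replicate 1 or 3 of experiment 1 or replicate 1 of experiment 2, with adjusted p between 0.0590 and 0.106. Without the array that stood apart the difference was -0.54 (adjusted p = 0.0201). Among 4 plasma cell markers, PRDM1, the master regulator of plasma cell differentiation, fell in the p52/RelB KD (-0.40 ± 0.05 SE, adjusted p = 0.000186, and -0.41 without the array that stood apart), SDC1 and XBP1 were not called, and JCHAIN was below the limit. The log2 values of these 4 markers summed to between 31.6 and 32.1 on p52/RelB KD arrays and between 32.1 and 32.8 on control 2 arrays, and their part in the fall of TNFRSF17 was not tested.

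CD27 (cluster 7953333) encodes the receptor for CD70 and marks memory B cells and plasma cells. It was the 1 receptor that rose. On p52/RelB KD arrays its lowest, median and highest values were 10.93, 11.08 and 11.35, against 10.57, 10.68 and 10.78 on control 2 arrays. All 6 p52/RelB KD arrays were above all control arrays, which was so for 2.02% of clusters in experiment 2 and, in the p50/RelA KD, for 0.369% in experiment 1. CD27 rose by 0.42 ± 0.05 on the log2 scale (SE), to 134% of the control level (adjusted p = 0.000238), and by 0.38 ± 0.04 without the array that stood apart, which held its highest value (adjusted p = 2.81e-05). The replicates gave 0.40, 0.41 and 0.43.

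CD27 in the p50/RelA KD had a lowest, median and highest value of 10.61, 10.73 and 10.79, against 10.50, 10.67 and 10.83 in control 1, and was not called (0.04 ± 0.05 SE, adjusted p = 0.860). The difference between the effects was 0.38 ± 0.07 (p52/RelB minus p50/RelA, SE, adjusted p = 0.00191, and 0.34 without the array that stood apart). CD27 is also a T cell gene. Of 7 T and NK cell markers 5 were tested in the p52/RelB KD and none was called, while CD3G and KLRD1 were below the low-value limit. CD7 was the highest, at 9.08 ± 0.19 on p52/RelB KD arrays and 8.98 ± 0.03 on control 2 arrays (SD, n = 6 each), and CD3D, a defining T cell gene, averaged 6.39 and 6.32. The log2 values of the 7 markers summed to between 42.8 and 46.0 on p52/RelB KD arrays and between 42.8 and 43.6 on control 2 arrays, and their part in the rise of CD27 was not tested. Among 5 B cell markers tested in the p52/RelB KD, PAX5 rose (0.19, limma adjusted p = 0.00627) and 4 were not called. Of 3 plasma cell markers tested there, PRDM1 fell, as given above, and 2 were not called. The part of these markers in the rise of CD27 was not tested either. CD70, the ligand gene of CD27, was not called in either KD, at -0.15 in the p52/RelB KD (adjusted p = 0.0823) and -0.11 in the p50/RelA KD (adjusted p = 0.418). Across the 24 arrays, after removal of each replicate's mean, CD27 ran against CD40 (Pearson r = -0.82) and TNFRSF17 (r = -0.75). These correlations are a description, since the points include the KD effects themselves and share arrays.

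**Figure D2:**
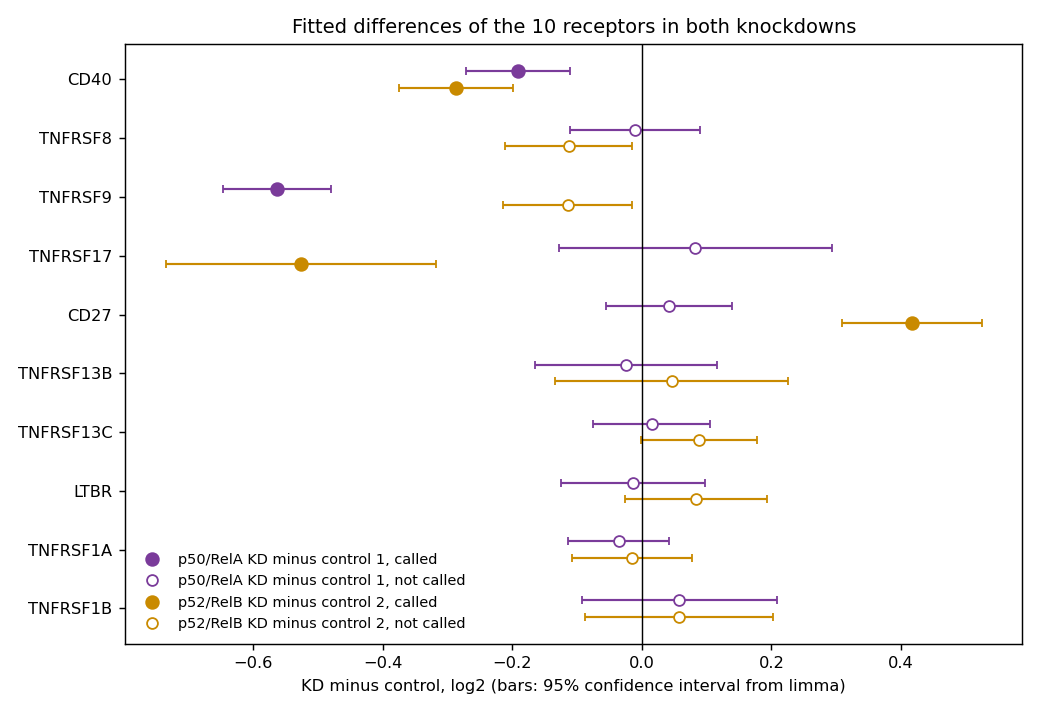
Fitted log2 difference, KD minus control, of the 10 receptors in the p50/RelA KD and the p52/RelB KD, with 95% confidence intervals and filled points for called genes. CD40 is filled in both KDs, TNFRSF9 in the p50/RelA KD alone, and TNFRSF17 and CD27 in the p52/RelB KD alone.

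TNFRSF8 (cluster 7897860), the CD30 gene, was not called in either KD on all arrays. Its lowest, median and highest values were 9.15, 9.20 and 9.25 on p50/RelA KD arrays, against 9.06, 9.22 and 9.35 on control 1 arrays, a difference of -0.01 with a 95% confidence interval of -0.11 to 0.09. On p52/RelB KD arrays they were 8.93, 9.06 and 9.21, against 9.11, 9.19 and 9.27 on control 2 arrays. Of the 6 p52/RelB KD arrays 4 were below every control array, and the highest was the array that stood apart. TNFRSF8 was not called with it (-0.11 ± 0.04 SE, adjusted p = 0.149), and was called lower without it (-0.15 ± 0.03 SE, adjusted p = 0.00846).

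The receptors of BAFF and APRIL other than BCMA did not pass the test in either KD. TNFRSF13B (cluster 8013061) encodes TACI, which binds both ligands, and TNFRSF13C (cluster 8076387) encodes the BAFF receptor, which mature B cells need to survive. TNFRSF13B had a difference of -0.02 in the p50/RelA KD (95% confidence interval -0.17 to 0.12) and of 0.05 in the p52/RelB KD (-0.13 to 0.23). TNFRSF13C had 0.02 in the p50/RelA KD (-0.07 to 0.11) and 0.09 in the p52/RelB KD (-0.0019 to 0.18, adjusted p = 0.227). On p52/RelB KD arrays its lowest, median and highest values were 8.41, 8.45 and 8.60, against 8.30, 8.39 and 8.43 on control 2 arrays. There 5 of the 6 p52/RelB KD arrays were above every control array, and all 6 were above the control mean of their replicate.

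The receptors of lymphotoxin and TNF did not pass the test either. LTBR (cluster 7953321) encodes the lymphotoxin β receptor, TNFRSF1A (cluster 7960518) TNF receptor 1 with its death domain, and TNFRSF1B (cluster 7897877) TNF receptor 2, which lacks one. Their differences in the p50/RelA KD were -0.01 for LTBR, -0.04 for TNFRSF1A and 0.06 for TNFRSF1B, and all 3 confidence intervals held 0. In the p52/RelB KD they were 0.08 for LTBR, -0.01 for TNFRSF1A and 0.06 for TNFRSF1B, again with 0 inside each interval. TNFRSF1A had -0.03 ± 0.04 (SE) without the array that stood apart. The widest of these intervals, -0.09 to 0.21 for TNFRSF1B in the p50/RelA KD, allows a change past the 10% limit. So do those of TNFRSF1B (-0.09 to 0.20) and LTBR (-0.03 to 0.19) in the p52/RelB KD.

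Of these genes, 4 had their highest value of the arm on the p52/RelB KD array that stood apart, at 9.21 for TNFRSF13B, 8.60 for TNFRSF13C, 7.22 for LTBR and 7.61 for TNFRSF1B. Without that array their differences were -0.04 for TNFRSF13B, 0.06 for TNFRSF13C, 0.04 for LTBR and -0.01 for TNFRSF1B, and none was called. The sign turned for TNFRSF13B and TNFRSF1B.

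No receptor passed the test between siRNA sequences. Sequence 2 minus sequence 1 was called for none of the 10 receptors in any arm and for 0% of all clusters in each of the 4 arms (limma). At an unadjusted p below 0.05 there were 562 clusters in the p50/RelA KD, 381 in control 1, 1673 in the p52/RelB KD and 175 in control 2. Among the receptors 3 were below that p, all in the p52/RelB KD, namely CD27 (0.18 ± 0.05 SE), TNFRSF1A (0.13 ± 0.05) and TNFRSF13B (0.24 ± 0.10), each with an adjusted p of 0.504. Without the array that stood apart, TNFRSF13B had 0.08 ± 0.06, CD27 0.15 ± 0.04 and TNFRSF1A 0.13 ± 0.05, and 1228 clusters were below an unadjusted p of 0.05, with 0 called. That array was chosen to be left out here, and from the between-KD tests, after the values were seen. For CD27 the rise was 0.32 ± 0.03 with sequence 1 and 0.51 ± 0.05 with sequence 2 (SD, n = 3 replicates each). TNFRSF17 spread widely, with -0.47 ± 0.33 for sequence 1 and -0.58 ± 0.20 for sequence 2 in the p52/RelB KD (SD, n = 3).

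**Figure D3:**
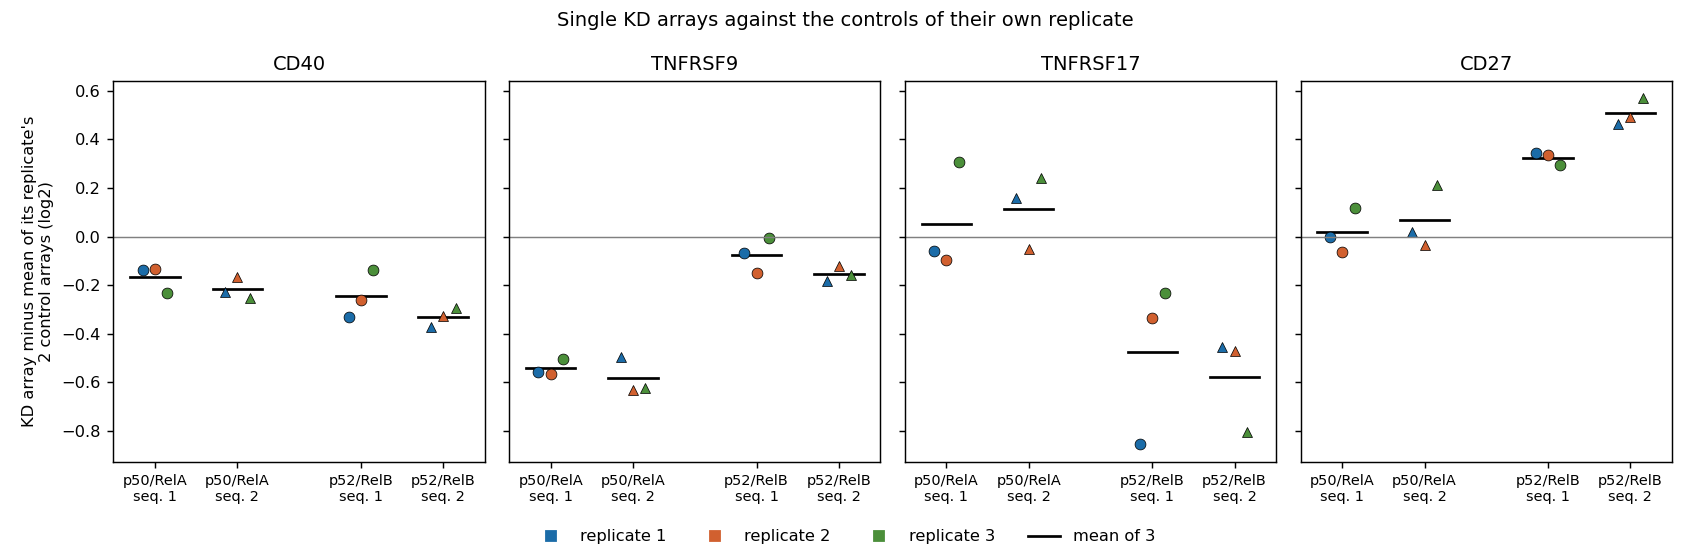
Log2 value of each KD array minus the mean of the 2 control arrays of its replicate, for the 4 called receptors, by KD and siRNA sequence, with a line at the mean of 3 replicates. All p50/RelA KD arrays of TNFRSF9 lie between -0.63 and -0.50, and all p52/RelB KD arrays of CD27 between 0.30 and 0.57.

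Among 19 other genes of the superfamily, 17 had a cluster of their own. Of 14 tested in the p50/RelA KD 1 was lower, beside 0.876% of all clusters, and of 16 tested in the p52/RelB KD 2 were lower, beside 6.0% of all clusters. TNFRSF14, which encodes the herpesvirus entry mediator, a tumour suppressor in B cell lymphoma, averaged 9.75 ± 0.09 in the p50/RelA KD and 9.98 ± 0.10 in control 1, and 9.58 ± 0.08 in the p52/RelB KD and 9.76 ± 0.08 in control 2 (SD, n = 6 each). It fell in both (-0.23 ± 0.05 SE, adjusted p = 0.0484, and -0.18 ± 0.05 SE, adjusted p = 0.0415). These calls were near the threshold, and each was lost without many single arrays, 11 of 12 in experiment 1 and 10 of 12 in experiment 2. With no replicate block neither was called (adjusted p = 0.0897 and 0.0561). Without the array that stood apart TNFRSF14 had -0.22 in the p52/RelB KD (adjusted p = 0.000966). TNFRSF10B, the TRAIL receptor DR5, fell in the p52/RelB KD (-0.20 ± 0.04 SE, adjusted p = 0.0105, and -0.17 without the array that stood apart), a call lost with no replicate block (adjusted p = 0.0501). FAS was not called, at 0.16 in the p52/RelB KD (adjusted p = 0.0793) and -0.07 in the p50/RelA KD (adjusted p = 0.532). Its effects differed between the KDs (0.23 ± 0.06 SE, p52/RelB minus p50/RelA, limma adjusted p = 0.0343), a call lost with no replicate block (0.178). TNFRSF11A was also called in neither KD, but its effects differed (0.21 ± 0.04 SE, adjusted p = 0.00366, and 0.0186 with no replicate block).

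Of the 10 ligand genes of these receptors, 8 had a cluster of their own. In the p50/RelA KD 2 of 6 tested genes were lower, beside 0.876% of all clusters. In the p52/RelB KD 3 of 8 were lower, beside 6.0% of all clusters, and none was higher in either KD. LTA, the gene of lymphotoxin α, has 3 clusters, which fell by 0.19 to 0.20 in the p50/RelA KD and by 0.44 to 0.49 in the p52/RelB KD (-0.46 to -0.42 without the array that stood apart). The effects of the KDs on LTA differed, by -0.29 to -0.24 over its clusters (p52/RelB minus p50/RelA, adjusted p between 0.0124 and 0.0196), a call lost with no replicate block (adjusted p between 0.0858 and 0.121). TNF fell in the p50/RelA KD (-0.26 ± 0.06 SE, adjusted p = 0.0392) and in the p52/RelB KD (-0.31 ± 0.05 SE, adjusted p = 0.00176, and -0.29 without the array that stood apart), and its 3 clusters hold the same values, so they count as 1 measurement. In experiment 1 the calls of LTA and TNF were lost without 8 or more of the 12 single arrays and with no replicate block (adjusted p between 0.216 and 0.224 for LTA, and 0.244 for TNF). TNFSF9, which encodes the ligand of 4-1BB, fell in the p52/RelB KD (-0.19 ± 0.04 SE, adjusted p = 0.00825, and -0.21 without the array that stood apart). It was not called in the p50/RelA KD (-0.05, adjusted p = 0.721), and no difference between the KDs is claimed for it. LTB and TNFSF14, ligand genes of the lymphotoxin β receptor and HVEM, were called in neither, and TNFSF8, the CD30 ligand gene, was not called in the p52/RelB KD and lay below the low-value limit in experiment 1.

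Among 10 adaptor and kinase genes tested, 1 was lower in the p50/RelA KD, beside 0.876% of all clusters. In the p52/RelB KD 2 were lower and 2 higher, beside 6.0% and 4.04% of all clusters. BIRC2, which encodes the ubiquitin ligase cIAP1 that marks NIK for degradation, averaged 9.47 ± 0.08 in the p50/RelA KD and 9.72 ± 0.10 in control 1, and 9.69 ± 0.22 in the p52/RelB KD and 10.31 ± 0.02 in control 2 (SD, n = 6 each). It fell by 0.25 in the p50/RelA KD (adjusted p = 0.0263, lost without 8 of 12 single arrays) and by 0.62 in the p52/RelB KD (adjusted p = 0.000552, and -0.52 without the array that stood apart). MAP3K14, the NIK gene, rose in the p52/RelB KD, with means of 9.35 ± 0.07 there and 8.90 ± 0.09 in control 2 (0.44 ± 0.05 SE, adjusted p = 0.000170, and 0.43 without the array that stood apart). Its effects differed between the KDs (0.36 ± 0.07 SE, adjusted p = 0.00451). CHUK, the IKKα gene, rose in the p52/RelB KD (0.19 ± 0.05 SE, adjusted p = 0.0286) and TRAF1, an adaptor of CD30 and CD40, fell (-0.23 ± 0.06 SE, adjusted p = 0.0320), and either call was lost without 9 of 12 single arrays. Without the array that stood apart CHUK had 0.22 and TRAF1 -0.29, both called.

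The inhibitor genes of the pathway fell in part. Of 6 tested, 2 were lower in each KD and none was higher. Over all clusters, 0.876% were lower in the p50/RelA KD and 6.0% in the p52/RelB KD. TNFAIP3, the A20 gene, fell in both (-0.45 ± 0.04 SE in the p50/RelA KD, adjusted p = 5.61e-05, and -0.35 ± 0.07 SE in the p52/RelB KD, adjusted p = 0.00839, where it was -0.31 without the array that stood apart). NFKBIA averaged 12.09 ± 0.08 in the p50/RelA KD and 12.48 ± 0.06 in control 1 (SD, n = 6 each), and fell by 0.40 on the log2 scale (adjusted p = 8.21e-05). It was not called in the p52/RelB KD (0.04, adjusted p = 0.613), and the effects differed by 0.44 ± 0.05 (SE, adjusted p = 3.38e-05), as those of TNFRSF9 did in the same direction. TNIP1, which encodes a partner of A20, fell in the p52/RelB KD (-0.31 ± 0.03 SE, adjusted p = 0.000153, and -0.32 without the array that stood apart). Of the 2 sheddase genes, ADAM17, whose product cuts TNF and its receptors from the cell surface, fell in the p52/RelB KD close to the threshold (-0.22 ± 0.07 SE, adjusted p = 0.0495), a call lost without 10 of 12 single arrays and with no replicate block (adjusted p = 0.0557). Without the array that stood apart it was -0.16 (adjusted p = 0.00411). ADAM10 was not called.

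**Figure D4:**
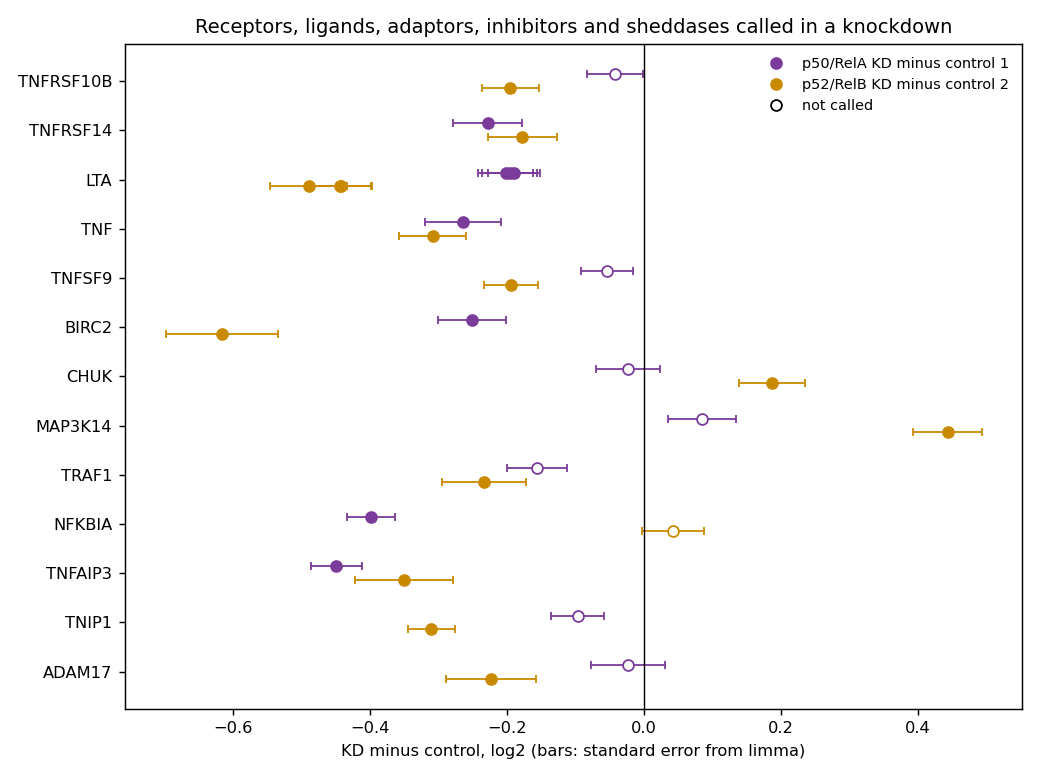
Fitted log2 difference, KD minus control, with its standard error, of the other receptor, ligand, adaptor, inhibitor and sheddase genes called in at least one KD, with open points where a KD did not pass the test and a point for each of the 3 clusters of LTA and TNF. BIRC2 in the p52/RelB KD has the largest fall of these, -0.62, and MAP3K14 the largest rise, 0.44.

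Genes with the pattern most like a receptor were looked up for CD40 and TNFRSF9 over all 14646 other clusters with a single symbol that were tested in both experiments. The measure was Pearson's r over the 24 arrays after removal of each replicate's mean, so it reflects the KD effects as well as the spread between arrays. CCL22, a chemokine gene that Hodgkin cells express strongly, was closest to CD40 (r = 0.94), followed by MMD, CSF2RB, TNFAIP6 and ZBTB32 with r of 0.93 each. PERP, FRRS1 and the histone gene H2AC4 ran most against CD40, with r between -0.91 and -0.90, although near-identical histone genes may share that cluster's signal. ITPKB was closest to TNFRSF9 (r = 0.94), followed by ICAM1, PRRT3, EBI3 and NFKBIA with r between 0.90 and 0.93. SPTBN1, CPNE2 and ST7 ran most against TNFRSF9, with r between -0.83 and -0.81. CD40 and TNFRSF9 themselves correlated at 0.65 over these arrays.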

How the data were processed

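RNA of L1236 cells was hybridized to 24 Affymetrix Human Gene 1.0 ST arrays. The authors deposited log2 values made by RMA in the Bioconductor library oligo (background correction, quantile normalization and a summary per transcript cluster). The sources used here give no version for it. RMA values compress large differences and carry no detection call, arrays have no read depth, so precision rests on how many there are. The median SE of a KD effect was 0.0474 in experiment 1 and 0.0533 in experiment 2. The methods adjust the values for covariates that they do not name.

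Symbols came from GEO's platform annotation and were updated through the NCBI gene table. A named cluster entered the tests of an experiment if fewer than 50% of its 12 arrays were below 6. KD and control of 1 experiment were compared in limma (version 3.58.1, R version 4.3.3), by lmFit then eBayes, and replicates were blocks. P-values were Benjamini-Hochberg adjusted over all clusters tested, and called clusters had an adjusted p under 0.05 and differed by 10% or more, the thresholds in the methods. All differences are KD minus control. KD effects were compared by limma on all 24 arrays together, each replicate of each experiment being a block, and siRNA sequences within each arm. Per the methods, each replicate of an experiment held both control and both KD samples, so same numbers were taken as pairs. Same-numbered replicate means of KD and control also deviated together (correlations between 0.193 and 0.576). In experiment 1 these correlations cannot tell replicate from scan batch. Scan batches 1, 2 and 3 are the replicates of experiment 1, and experiment 2 was scanned in batch 4 (replicate 3) and batch 5 (replicates 1 and 2).

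The receptors and the gene lists were chosen with earlier results of these data known. Named from a list were all genes called, up to 6 per list, and for CD40 and TNFRSF9 the 5 genes with the highest and the 3 with the lowest correlation. In the B cell list PAX5 rose in the p52/RelB KD (0.19, adjusted p = 0.00627, and 0.17 without the array that stood apart), and in the plasma cell list PRDM1 fell. No T and NK cell or myeloid marker was called. Of the Hodgkin cell markers, CCL17 fell in the p50/RelA KD, GATA3 in the p52/RelB KD and CCL22 in both. In the p52/RelB KD GATA3 had -0.22 and CCL22 -0.86, and -0.19 and -0.84 without the array that stood apart. The fits were tested on simulated data. Alternatives were no block, the methods' t-test, other filters and normalizations, each siRNA sequence alone, averaged sequences, single scan batches and each replicate or array left out. The between-KD and between-sequence tests without the array that stood apart, and the list genes with no block or averaged sequences, were added after seeing the data.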

Additional observations from a re-analysis of the deposited data

Results flagged for a closer look

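An array lay far from the other 5 of its arm, by Dixon's ratio of its gap to the range, for 8 of the 40 combinations of receptor and arm. Chance gives about 1 in 20. Of the 8, 4 were the array of p52/RelB KD with sequence 2 in replicate 3, which read 9.21 for TNFRSF13B (the others 8.58 to 8.74), 8.60 for TNFRSF13C (8.41 to 8.46), 7.22 for LTBR (the others at most 7.02) and 7.61 for TNFRSF1B (7.17 to 7.32). The others were single arrays. TNFRSF17 read 6.58 in replicate 1 with sequence 2 of the p50/RelA KD (the others 6.27 to 6.37) and 5.68 on the control 1 array of sequence 2 in replicate 3 (6.30 to 6.46). TNFRSF13B read 8.19 in replicate 3 with sequence 2 of the p50/RelA KD (8.28 to 8.33), and TNFRSF13C read 7.66 on the control 1 array of sequence 2 in replicate 2 (7.79 to 7.87).

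The effects of the KDs differed for 3 of the 10 receptors, tested as p52/RelB minus p50/RelA effect in 1 limma fit. Over all 15962 clusters tested in that fit, 4.61% were called in either direction. The difference was 0.45 for TNFRSF9 (adjusted p = 6.43e-05), -0.61 for TNFRSF17 (adjusted p = 0.0179) and 0.38 for CD27 (adjusted p = 0.00191). Of 13 alternatives, the call was lost in 1 for TNFRSF9, in 5 for TNFRSF17 and in 2 for CD27.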

How the results depend on the processing

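No called receptor changed sign under any alternative run. With no replicate block, 1 receptor was called in the p50/RelA KD in place of 2, since the call of CD40 was lost (adjusted p = 0.236). The pairing changed no other call among the receptors, with 3 called in the p52/RelB KD and 3 for the difference between the KDs. Of the list genes called, 4 of 11 lost the call with no replicate block in the p50/RelA KD (LTA, NFKB2, TNF and TNFRSF14) and 4 of 20 in the p52/RelB KD (ADAM17, NFKB1, TNFRSF10B and TNFRSF14). With sequences averaged first, 5 of 11 lost it in the p50/RelA KD (BIRC2 besides those 4) and 9 of 20 in the p52/RelB KD (CHUK, GATA3, PAX5, TNFSF9 and TRAF1 besides). These list gene alternatives were chosen after seeing the data. For the p50/RelA KD 1 was called with sequence 1 alone and with both sequences averaged first, and 0 with sequence 2 alone and within scan batch 1, 2 or 3. For the p52/RelB KD 0 were called with sequence 2 alone and within scan batch 4. For the difference 1 was called with sequence 1 alone and 0 with sequence 2 alone. These fits hold fewer arrays. With 1 array or replicate left out, 1 to 2 were called in the p50/RelA KD, 2 to 4 in the p52/RelB KD and 2 to 3 for the difference.

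Some receptors that were not called changed sign, and the cause was not tested. For the p50/RelA KD, sequence 1 alone gave -0.027 for TNFRSF17, 0.017 for TNFRSF13B, -0.015 for TNFRSF13C and 0.070 for LTBR, sequence 2 alone gave 0.027 for TNFRSF8, scan batch 1 gave -0.058 for TNFRSF13C and -0.14 for TNFRSF1B, scan batch 2 gave 0.00086 for TNFRSF8, -0.075 for TNFRSF17, -0.048 for CD27, 0.18 for TNFRSF13B, 0.10 for LTBR and 0.035 for TNFRSF1A, scan batch 3 gave -0.039 for TNFRSF13C. Its range with 1 array or replicate left out was -0.12 to 0.045 for TNFRSF13B, -0.068 to 0.023 for LTBR, -0.049 to 0.052 for TNFRSF13C, -0.032 to 0.16 for TNFRSF1B, -0.026 to 0.16 for TNFRSF17, -0.020 to 0.087 for CD27 and -0.049 to 0.024 for TNFRSF8. For the p52/RelB KD, sequence 1 alone gave -0.057 for TNFRSF13B, sequence 2 alone gave 0.028 for TNFRSF1A, scan batch 5 gave -0.014 for TNFRSF13B and -0.028 for TNFRSF1B. Its range with 1 array or replicate left out was -0.042 to 0.10 for TNFRSF13B, -0.028 to 0.13 for TNFRSF1B and -0.035 to 0.0051 for TNFRSF1A. For the difference between the KDs, sequence 1 alone gave -0.074 for TNFRSF13B and -0.038 for TNFRSF1A, sequence 2 alone gave 0.060 for TNFRSF1B. Its range with 1 array or replicate left out was -0.0071 to 0.057 for TNFRSF1A, -0.10 to 0.090 for TNFRSF1B and -0.017 to 0.17 for TNFRSF13B.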
